A study of Homo sapiens with 4 samples.

Results

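HCP5, MICA, MICB, HLA-E and HLA-F are 5 genes of the major histocompatibility complex (MHC) on human chromosome 6. They were followed in Kit225, a leukemic T cell line of human origin, kept in medium with interleukin-2 (IL-2). HCP5 was picked by its measured fall after NC1153, so its difference is described here and not tested, and the other genes were added as its neighbours or as relatives with a role in stress recognition. The array measures them with 9 probe sets that its annotation assigns to 1 of these genes alone, 1 each for HCP5, MICA and MICB and 3 each for HLA-E and HLA-F, out of 19775 named genes in all. Of the samples, 2 were given NC1153 for 12 hours, a compound known as an inhibitor of the kinase JAK3, at a concentration that the labels write as 25 mM. The 2 controls were given the solvent DMSO at 0.1% for the same time, and both groups grew with IL-2 at 20 U/ml and 10% serum. Kit225 is 1 cell line, and nothing states that the samples came from separate cultures, so a p-value here speaks of no more than the spread of these 4 arrays, and that spread could be technical.

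MICA and MICB are membrane proteins built like MHC class I heavy chains, but they present no peptide. Stressed, infected and transformed cells show them as ligands of NKG2D, an activating receptor of natural killer (NK) cells and cytotoxic T cells, and both genes are known for heat shock elements in their promoters. HLA-E presents leader peptides of other class I chains to the NK receptor of CD94 and NKG2A, which inhibits killing, and HLA-F binds KIR3DS1 and LILRB1 in forms with and without peptide. HCP5 is a long non-coding RNA with endogenous retroviral sequence, transcribed from the stretch between MICA and MICB. In the RefSeq gene table (GRCh38.p14) the order there is MICA, LINC01149, HLA-X, HCP5, HCG26, MICB-DT and MICB.

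Promoters of 4 of the 5 genes are held in the RefSeq promoter table (GRCh38.p14), each from 250 bases before to 50 after the gene start. Those of HCP5, MICA and MICB are shown since HCP5 is transcribed from between the other 2 genes. HCP5 spans chr6:31462930-31463229, MICA chr6:31403345-31403644 and MICB chr6:31497895-31498194, all on the plus strand. Capitals mark matches to the motifs searched, on either strand: GAATTTTC is a heat shock element, and GGGCGG and its reverse complement CCGCCC are GC boxes.
HCP5: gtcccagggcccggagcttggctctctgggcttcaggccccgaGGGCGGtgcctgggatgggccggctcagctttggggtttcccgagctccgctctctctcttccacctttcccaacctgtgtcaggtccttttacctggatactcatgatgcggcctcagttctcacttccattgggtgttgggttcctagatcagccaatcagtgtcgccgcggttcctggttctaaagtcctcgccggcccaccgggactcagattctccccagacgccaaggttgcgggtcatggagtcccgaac
MICA: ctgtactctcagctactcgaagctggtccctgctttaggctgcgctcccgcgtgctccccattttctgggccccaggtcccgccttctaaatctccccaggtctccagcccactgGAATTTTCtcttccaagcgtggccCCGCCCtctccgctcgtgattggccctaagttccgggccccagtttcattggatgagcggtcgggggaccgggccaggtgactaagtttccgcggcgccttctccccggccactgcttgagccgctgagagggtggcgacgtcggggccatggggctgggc
MICB: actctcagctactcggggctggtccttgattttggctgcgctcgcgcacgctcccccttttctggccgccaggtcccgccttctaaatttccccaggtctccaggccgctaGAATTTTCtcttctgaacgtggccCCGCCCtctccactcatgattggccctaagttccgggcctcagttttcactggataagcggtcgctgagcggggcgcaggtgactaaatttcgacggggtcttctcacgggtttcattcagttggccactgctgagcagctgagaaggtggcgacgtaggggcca

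The promoters of MICA and MICB had 78.2% identical bases in a global alignment and carried the same heat shock element, from -135 to -128 in MICA and from -139 to -132 in MICB relative to the gene start. The HCP5 promoter matched that of HLA-F in 76.8% of aligned columns, against 54.4% for MICA and 54% for MICB, and held no match to the heat shock element. That motif was searched as GAANNTTC or TTCNNGAA and occurs in 13.5% of all 35116 promoters of this length. A GC box, searched as GGGCGG, occurs in 45% of them and in HCP5, MICA and MICB. The HLA-F promoter had 1 match to an interferon response core, GAAANNGAA, which 8.11% of promoters hold. None of the 4 promoters matched a GAS element (TTCNNNGAA, the kind of site that STAT proteins bind, in 7.66% of promoters), TGACG (24.6%), CACGTG (7.26%), TGACNNNGC (13.3%) or TGATGNAA (3.62%). Only these letters in this window were looked for, and the motifs may overlap each other.

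Values below are scaled Affymetrix signals in arbitrary units, and differences are log2 signal of NC1153 minus DMSO, so they compare 1 probe set between groups. Per the file headers, NC1153 replicate 1 needed a scaling factor of 6.68, against 2.97 for NC1153 replicate 2 and 2.66 to 2.88 for the DMSO arrays, so it was the dimmest array before scaling. Its 3' to 5' signal ratio for actin, a measure of RNA integrity, was 4.47, against 3.89 for NC1153 replicate 2 and 3.54 and 3.82 for the DMSO arrays. The part of these array properties in the results was not tested. In the file headers the equally numbered NC1153 and DMSO arrays carry names with a shared prefix, whose meaning is not given. Differences within each number are therefore given for the members and for the called probe sets of the listed genes. T cell and IL-2 receptor genes fitted the label in part: signals on the 4 arrays were 6388 to 12527 for CD2, 1801 to 3253 for CD4 and 16580 to 18177 for IL2RA, but 11.7 to 61.1 for CD3G, below the median of all signals, 72.3. CD3D had 139.9 on NC1153 replicate 1, against 10.9 on NC1153 replicate 2 and 16.8 and 7.81 on the DMSO arrays. CD3E at 26.4 to 94.05, CD5 at 38.4 to 110.5 and CD7 at 28.3 to 175.5 each lay on both sides of that median. PTPRC was bright, at 7307 to 12266. Of 9 T cell markers none was called different by limma, and 2 had an unadjusted p under 0.05. NKG7, a gene of NK and cytotoxic T cells, had signals of 4531 and 4469 with NC1153 and 6279 and 5461 with DMSO. The other measured NK markers were far dimmer. Their signals were 13.9 to 52.7 for KLRD1, 10.85 to 141.4 for GNLY, 49.9 to 153.8 for NCAM1 and 170.5 to 307.5 for KLRF1.

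HCP5 showed the largest difference of the 5 genes. Its signal was 48.5 and 87.0 in NC1153 samples, against 891 and 918 in DMSO samples. The DMSO arrays lay close together, the NC1153 arrays differed from each other, and the groups did not overlap. The means were 67.7 ± 27.2 with NC1153 and 905 ± 19.0 with DMSO (SD, n = 2 each), a log2 difference of -3.80, or 13.9-fold lower with NC1153. The NC1153 signals straddle the median of all signals, so the size of the ratio depends on how low signals are treated. With 50 added to each signal before the logarithm the log2 difference was -3.04. In the authors' deposited table, made by another summary method (RMA), HCP5 stood at 5.56 and 5.90 with NC1153, against 8.59 and 8.68 with DMSO, a log2 difference of -2.90 or 7.49-fold. Within the equally numbered arrays the log2 difference was -4.20 for number 1 and -3.40 for number 2. RNA was taken from whole cultures, where fewer cells with HCP5 and less HCP5 per cell cannot be told apart.

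With each gene represented by its brightest probe set, HCP5 ranked 6 of 19775 in size of fall. Over all 54613 probe sets it ranked 37. In the authors' deposited table it ranked 5 of 921 falls, and it was the 1 member probe set listed there. That table holds only the probe sets that the authors selected with limma and q-values. HCP5 passed the threshold in the whole-array fit, but as it was picked for its fall this is no result: limma called 1.78% of all probe sets lower and 1.94% higher at an adjusted p under 0.05, 971 and 1062 in number. With the replicate number as a block it called 1936 lower and 2061 higher. Without a trend in its variance model limma called no probe set of the array, HCP5 included, with 5300 at an unadjusted p under 0.05.

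**Figure D1:**
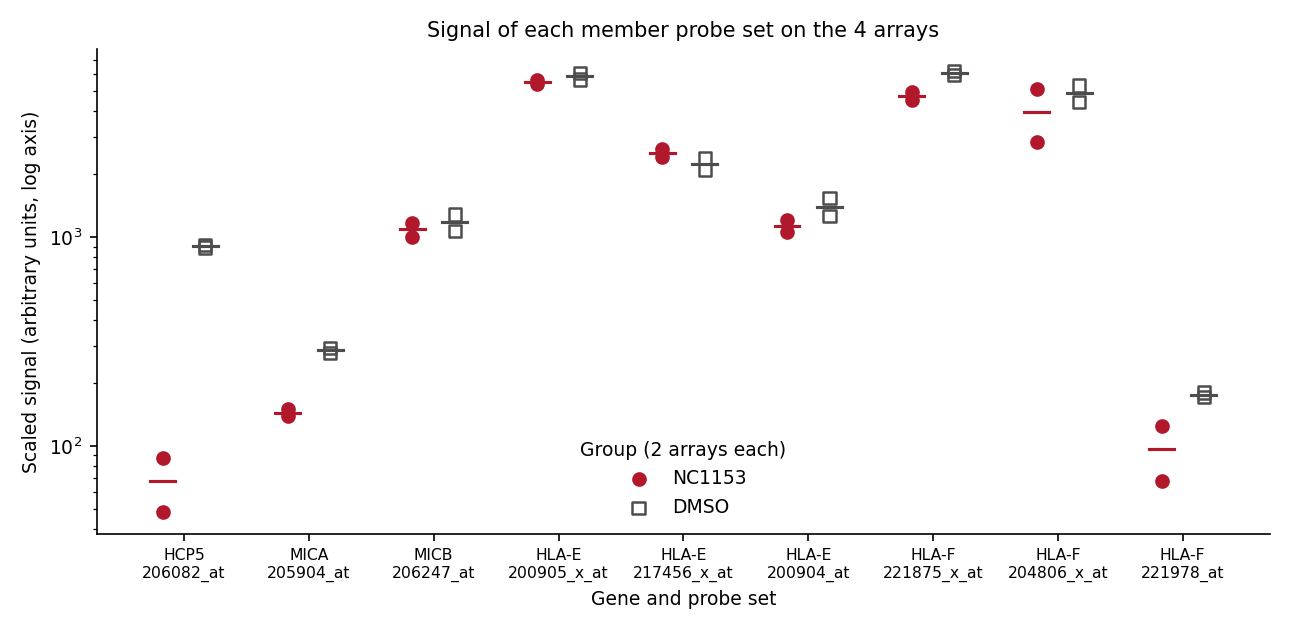
Scaled signal on a log axis for the 9 member probe sets; filled circles are the 2 NC1153 arrays, open squares the 2 DMSO arrays, and short lines the group means. The HCP5 arrays lie at 48.5 and 87.0 with NC1153 against 891 and 918 with DMSO, and the MICB groups overlap.

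MICA had about the same 2 values within each group. Its signal was 139 and 150 in NC1153 samples, against 279 and 295 in DMSO samples, with no overlap. The means were 144 ± 7.41 with NC1153 and 287 ± 11.5 with DMSO (SD, n = 2 each), 1.99-fold lower with NC1153. The log2 difference of -0.99 (SE 0.32, 95% interval -1.72 to -0.27) did not pass limma's test over all probe sets (unadjusted p = 0.012, adjusted p = 0.15). Within number 1 the log2 difference was -1.0 and within number 2 it was -0.98, and with the number as a block the adjusted p was 0.11. Its adjusted p lay between 0.091 and 0.60 over the other settings tried, so MICA did not pass under any of them.

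MICB, the other NKG2D ligand of the stretch, had signals of 1005 and 1167 with NC1153, against 1282 and 1072 with DMSO. The groups overlapped, and equally numbered arrays differed in sign, with log2 differences of -0.35 for replicate 1 and 0.12 for replicate 2. The fitted log2 difference was -0.11 (SE 0.18, 95% interval -0.51 to 0.28, limma adjusted p = 0.85), and it was 0.01 without DMSO replicate 1. A further probe set is assigned to MICA and MICB together and so is no member. It had signals of 526 and 306 with NC1153, against 356 and 396 with DMSO, a log2 difference of 0.10 with overlapping groups. Whether the MICA and MICB responses differ was not tested, since they come from different probes.

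HLA-E, the ligand of CD94 and NKG2A, is read by 3 probe sets whose differences were small and of both signs. The probe set without an x suffix had signals of 1204 and 1062 with NC1153, against 1534 and 1256 with DMSO. Its NC1153 arrays both lay below its DMSO arrays, with a log2 difference of -0.30 (95% interval -0.69 to 0.10, limma adjusted p = 0.48), and of -0.35 within number 1 and -0.24 within number 2. The other 2 carry the suffix x, which marks probes that may also bind related transcripts, here other class I genes. The brighter of these had 5667 and 5428 with NC1153, against 6115 and 5676 with DMSO, a log2 difference of -0.09 (95% interval -0.38 to 0.20, adjusted p = 0.84), and of -0.11 within number 1 and -0.06 within number 2. For the dimmer one the signals were 2643 and 2411 with NC1153, against 2392 and 2097 with DMSO, which gave 0.17 (95% interval -0.16 to 0.50, adjusted p = 0.67), with 0.14 within number 1 and 0.20 within number 2. That probe set was the 1 member with both NC1153 arrays above both DMSO arrays.

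HLA-F, the class I gene read by KIR3DS1 and LILRB1, had negative differences on all 3 of its probe sets, none of which passed. The brightest, an x probe set, had signals of 4931 and 4528 in NC1153 samples, against 6215 and 5942 in DMSO samples. These groups were apart, with a log2 difference of -0.36 (SE 0.13, 95% interval -0.66 to -0.07, unadjusted p = 0.020, limma adjusted p = 0.20), and of -0.33 within number 1 and -0.39 within number 2. The probe set without an x suffix, the dimmest, gave 68.0 and 125 with NC1153 against 171 and 180 with DMSO, a log2 difference of -0.93 (SE 0.48, adjusted p = 0.40). Its NC1153 arrays were far apart, and the difference was -0.49 without NC1153 replicate 1 and -1.37 without NC1153 replicate 2. Within number 1 it was -1.33 and within number 2 it was -0.53. On the second x probe set the groups overlapped, at 5085 and 2860 with NC1153 and 5311 and 4450 with DMSO. There the difference of -0.35 (adjusted p = 0.56) rested on NC1153 replicate 2, without which it was 0.07, and it was -0.06 within number 1 and -0.64 within number 2.

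Of the 8 probe sets of MICA, MICB, HLA-E and HLA-F, limma called 0 in either direction, and 2 had an unadjusted p under 0.05. Their median log2 difference was -0.32, with 7 below 0 and 1 above, beside a median of 0.02 over all probe sets. In 5 of the 8 both NC1153 arrays lay below both DMSO arrays, a pattern found in 21.2% of all probe sets, and in 1 of the 8 both lay above, against 22.8% of all. Probe sets of 1 gene share their transcript, and x probe sets can share others, so these are not 8 independent measurements.

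**Figure D2:**
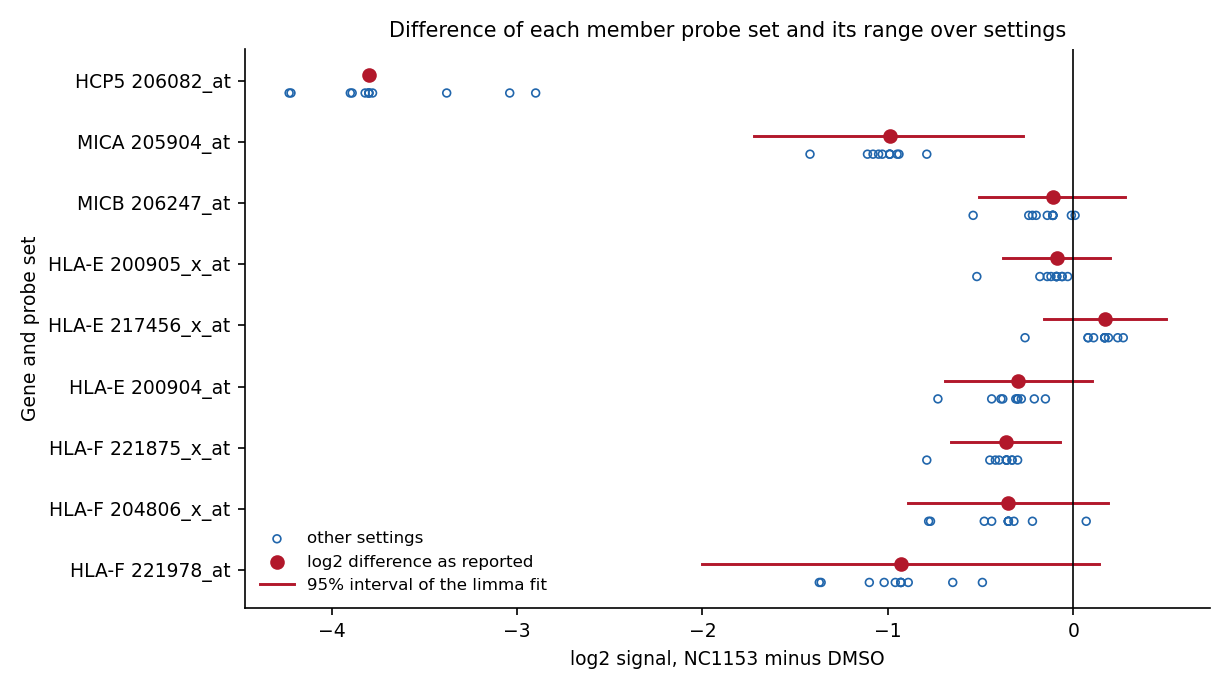
Log2 signal of NC1153 minus DMSO for the 9 member probe sets; red points are the values as reported, red lines the 95% intervals of the limma fit (not drawn for HCP5), and blue circles the values under the other settings. HCP5 runs from -4.23 to -2.90 and MICA from -1.42 to -0.79, while the values of MICB and the second HLA-F x probe set cross 0. The lone HLA-E value of -0.26 belongs to spike-in centring, which moves every probe set down alike.

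The genes on either side of HCP5 were measured by 10 probe sets in each direction, 1 per gene. Of these 20 genes limma called 0, and 1, MICA, had an unadjusted p under 0.05. At gene level the calls over the whole array were 2.84% lower and 3.09% higher. The neighbours' differences ran from -1.54 to 1.38 with a median of 0.08, against 0.00 over all genes. LINC01149, the nearest measured gene on the MICA side, had signals of 68.5 and 7.91 with NC1153 against 6.56 and 12.2 with DMSO, mostly below the median of all signals, and its difference of 1.38 was -0.18 without NC1153 replicate 1. HCG26, the nearest on the MICB side, had 150 and 27.1 with NC1153 against 174 and 158 with DMSO, a difference of -1.38 (SE 0.76, adjusted p = 0.45). That value rested on single arrays, at -2.61 without NC1153 replicate 1 and -0.14 without NC1153 replicate 2. LTA, the lymphotoxin alpha gene, had 57.2 and 23.7 with NC1153 against 114 and 101 with DMSO, a difference of -1.54 (adjusted p = 0.37), which was -2.17 without NC1153 replicate 1, -0.91 without NC1153 replicate 2 and -0.82 with 50 added to each signal. HLA-B and HLA-C, which lie beyond MICA, differed by 0.31 (adjusted p = 0.54) and -0.03 (adjusted p = 0.96). Both are read by x probe sets, which may also bind other class I transcripts. The HLA-B difference was 0.71 within number 1 and -0.09 within number 2.

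Other transcripts named after the members were looked at once the values had been seen. MICA-AS1, annotated antisense to MICA, had signals of 159 and 269 with NC1153 against 317 and 337 with DMSO, a log2 difference of -0.66 (SE 0.33, adjusted p = 0.39). HCP5B, a non-coding gene with a name like that of HCP5, had 13.8 and 44.2 with NC1153 against 59.9 and 87.6 with DMSO, a difference of -1.55 (SE 0.95, adjusted p = 0.50). Both had NC1153 arrays below their DMSO arrays. MICB-DT, the divergent transcript of MICB, had 14.3 and 13.4 with NC1153 against 9.66 and 9.64 with DMSO. Its difference was 0.52 (SE 1.1, adjusted p = 0.90) with both NC1153 arrays higher, but only 13.4% of probe sets were dimmer. HLA-F-AS1, annotated antisense to HLA-F, differed by 0.10 on its bright probe set and -1.16 on a very dim one, with overlapping groups on both. None of these 4 genes passed.

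**Figure D3:**
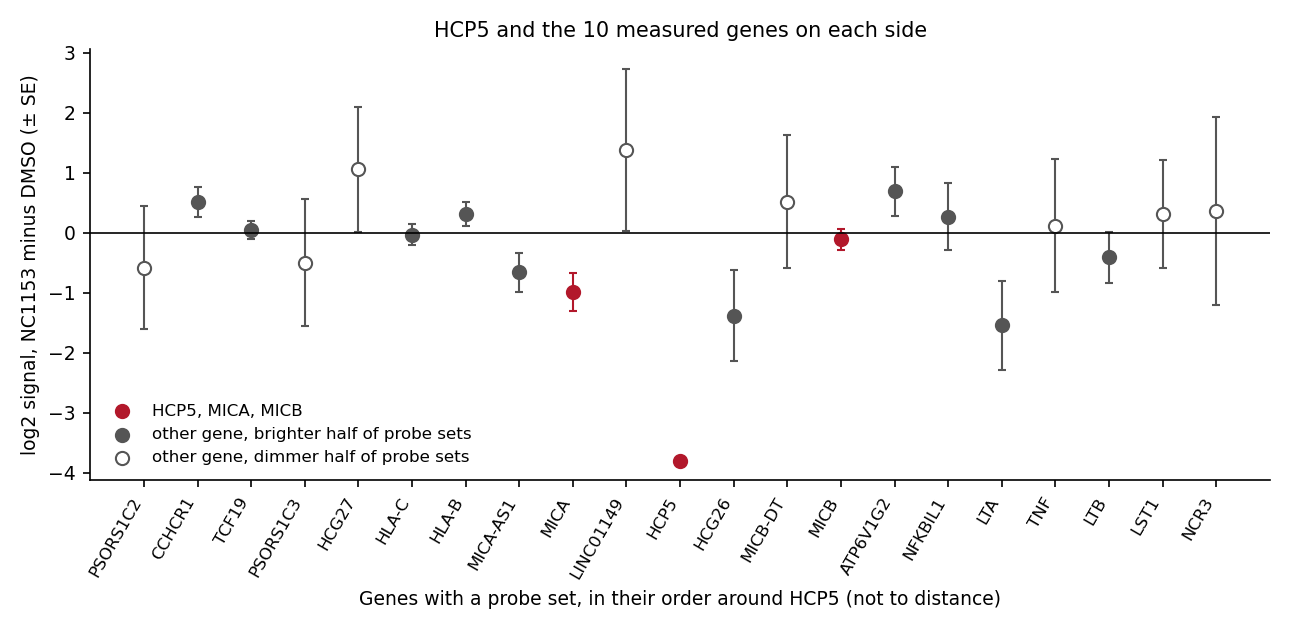
Log2 signal of NC1153 minus DMSO, with SE bars from the limma fit except for HCP5, for HCP5 and the 10 measured genes on each side in chromosomal order, not to distance; open points are genes whose mean lies below the median of all probe sets. HCP5 lies at -3.80, and the other 20 genes lie between -1.54 and 1.38.

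Genes that act with the members changed in single cases, to be read beside the 2.84% of all genes called lower and 3.09% called higher. At an unadjusted p under 0.05 stood 4017 of all 19775 genes. TAP1, a subunit of the pump that carries peptides to class I molecules, had signals of 1969 and 2479 with NC1153 against 4548 and 4430 with DMSO. It fell by 1.02 on the log2 scale (SE 0.15, limma adjusted p = 0.0089), the 1 call among 13 measured genes of class I chains and peptide loading, whose median was -0.27. Its difference was -1.21 within number 1 and -0.84 within number 2. Its call was lost without a trend in the variance model (adjusted p = 0.48) and with median centring (adjusted p = 0.32). In the authors' deposited table TAP1 is listed with a difference of -0.73. Of the 13 genes 3 had an unadjusted p under 0.05, and 9 lay below 0 and 4 above. TAP2 had signals of 1143 and 784 with NC1153 against 1765 and 1611 with DMSO, a difference of -0.83 (adjusted p = 0.058). Its other 3 probe sets ran from -1.05 to 2.04. The authors' deposited table lists TAP2 at -1.01, so their own analysis selected it. HLA-G, read by an x probe set, had 8270 and 6513 with NC1153 against 11394 and 11349 with DMSO. Its difference of -0.63 (SE 0.15) was narrowly not called, with a limma adjusted p that rounds to 0.05. Its other 3 probe sets ran from -0.48 to -0.23.

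Of 13 measured transcription factors of class I genes limma called 0, and 4 had an unadjusted p under 0.05. Their median was -0.03. CIITA, a coactivator of MHC genes, had signals of 89.7 and 109 with NC1153 against 222 and 246 with DMSO, a difference of -1.24 (adjusted p = 0.14), and its other 2 probe sets differed by -1.54 and 0.47. NLRC5, the class I counterpart of CIITA, had 406 and 380 with NC1153 against 576 and 540 with DMSO, a difference of -0.51 (adjusted p = 0.29). NFKB1, an NF-kB subunit, differed by -0.42 (adjusted p = 0.16). IRF1, the remaining gene of the 4, went the other way. It had 628 and 537 with NC1153 against 364 and 406 with DMSO, a difference of 0.59 (adjusted p = 0.22). The other IRF1 probe set differed by -0.07. The authors' deposited table lists CIITA at -1.20 and NLRC5 at -0.68. The authors' own selection on RMA values thus held both genes, though neither was called here.

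Among 7 measured regulators of MICA and MICB, ATR, a DNA damage kinase, fell by 0.91 on the log2 scale (adjusted p = 0.021), with signals of 924 and 1160 with NC1153 against 1912 and 1984 with DMSO. A second ATR probe set was also called lower, at -0.85 (adjusted p = 0.048), a dim further one had 0.81, and with NC1153 replicate 1 left out ATR no longer passed (adjusted p = 0.060). The ATR difference was -1.05 within number 1 and -0.77 within number 2, and on the second called probe set -0.97 and -0.74. HSF1, which binds heat shock elements, had 64.8 and 169 with NC1153 against 200 and 335 with DMSO, a difference of -1.31 (SE 0.51, adjusted p = 0.25), which was -0.62 without NC1153 replicate 1 and -2.0 without NC1153 replicate 2. A second HSF1 probe set differed by -0.50 with overlapping groups. On the first the groups did not overlap, but the higher NC1153 array lay near the lower DMSO array. The median of this list was -0.07, and 4 of the 7 genes had an unadjusted p under 0.05. Of these, ATM and CHEK2 went up and were not called. ATM had 989 and 977 with NC1153 against 524 and 679 with DMSO, a difference of 0.72 (adjusted p = 0.09). Its other 5 probe sets ran from -1.18 to 0.45. CHEK2 differed by 0.47 (adjusted p = 0.26), with both NC1153 arrays higher.

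Of 5 genes for the shedding of MIC proteins from the cell surface, the protease gene ADAM17 rose by 1.01 on the log2 scale (SE 0.17, adjusted p = 0.014). Its signals were 1758 and 1609 with NC1153 against 776 and 901 with DMSO, and the difference was 1.18 within number 1 and 0.84 within number 2. Its other 2 probe sets differed by 0.77 (adjusted p = 0.051) and 1.10 (adjusted p = 0.076). It no longer passed with NC1153 replicate 1 left out (adjusted p = 0.060) or with spike-in centring, which moves every probe set down alike and left 0.58 (adjusted p = 0.25). The list median was -0.02, and the authors' deposited table gives 0.91 for ADAM17.

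Among 4 measured NKG2D ligands other than MICA and MICB limma called 0, with 1 at an unadjusted p under 0.05 and a median of 0.67. ULBP2, a ligand anchored in the membrane by lipid, had signals of 464 and 370 with NC1153 against 244 and 276 with DMSO, a difference of 0.68 (adjusted p = 0.24). Both NC1153 arrays lay above both DMSO arrays, the opposite side from MICA. The authors' deposited table lists the same probe set at 1.19, so their own analysis selected it. A second ULBP2 probe set had 220 and 188 with NC1153 against 20.6 and 138 with DMSO, a difference of 1.93 (adjusted p = 0.28). ULBP1 had 154 and 83.8 with NC1153 against 132 and 39.1 with DMSO, and its difference of 0.66 was -0.22 without DMSO replicate 2. ULBP3, at -0.90, lay below the median of all signals on every array, and RAET1E, at 0.88, on all but NC1153 replicate 1.

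Of 9 measured genes for receptors of the MIC, HLA-E and HLA-F proteins or their adaptors, limma called 0 by their brightest probe sets. At an unadjusted p under 0.05 stood 1, and the median was -0.04. HCST and TYROBP are the adaptors. Apart from HCST and LILRB1, both group means of each gene lay below the median of all signals, so the count says little about them. KLRK1 and KLRC1, the genes of NKG2D and NKG2A, were not measured by a probe set of their own. LILRB1, an inhibitory receptor, had signals of 247 and 193 with NC1153 against 373 and 400 with DMSO, a difference of -0.82 (adjusted p = 0.17). Its second probe set was called lower, at -3.49 (adjusted p = 0.022), with 15.6 and 33.5 with NC1153 against 270 and 246 with DMSO. That difference was -4.11 within number 1 and -2.87 within number 2. LILRB2, a relative of LILRB1, differed by 0.98 (SE 1.23, adjusted p = 0.81), which was 0.10 without NC1153 replicate 1 and 1.85 without NC1153 replicate 2. Its other probe set had -0.67, with both NC1153 arrays lower. All of these LILRB1 and LILRB2 probe sets carry the suffix x, so they may also bind related transcripts. The NC1153 signals of the called LILRB1 probe set lay below the median of all signals, 72.3.

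Of 24 listed non-coding and pseudogene transcripts of the MHC 11 were measured, and limma called 0, with 0 at an unadjusted p under 0.05. Their median was -0.15. HLA-J, a class I pseudogene read by an x probe set, had 2991 and 2409 with NC1153 against 3332 and 3223 with DMSO, a difference of -0.29 (adjusted p = 0.42). HCG26, given above, belongs to this list too.

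**Figure D4:**
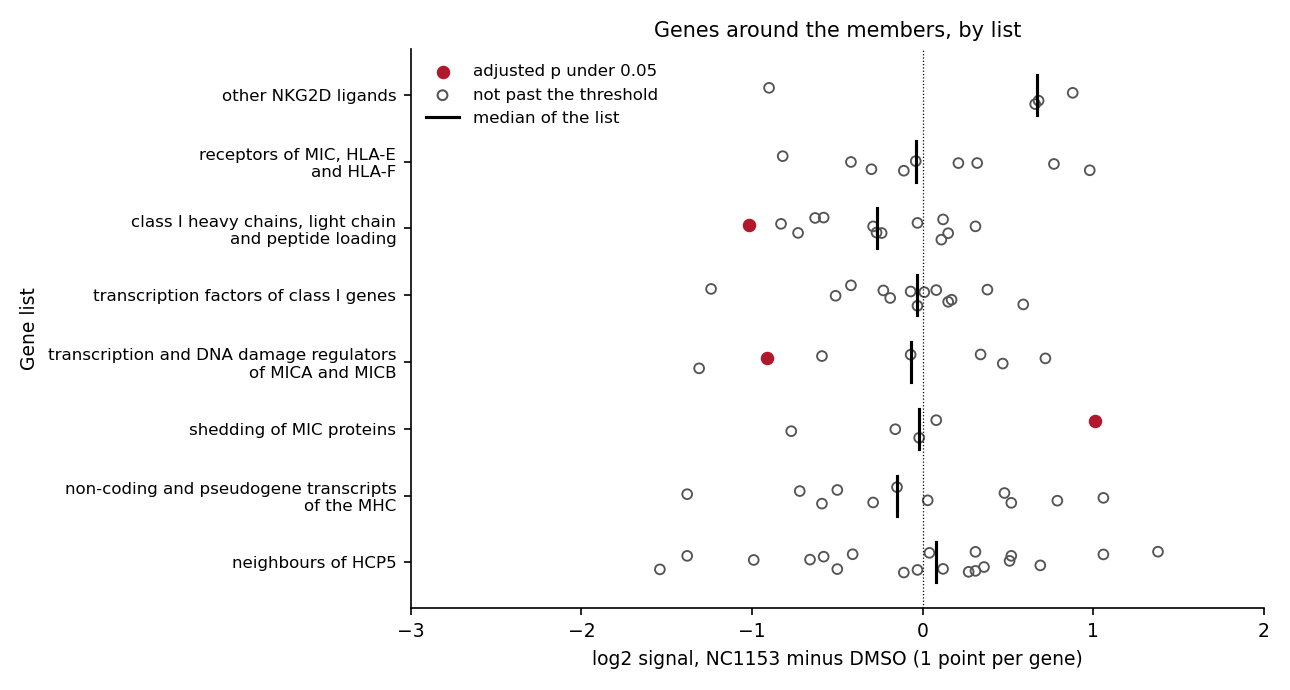
Log2 signal of NC1153 minus DMSO for each measured gene of 8 lists, with 1 point per gene, filled where the limma adjusted p was under 0.05, and a black bar at the list median. The filled points are TAP1 at -1.02, ATR at -0.91 and ADAM17 at 1.01.

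The genes whose profile over the 4 arrays lay closest to that of HCP5 were sought among 11939 genes with a mean above the median, by the root mean square difference of log2 signals after each gene's own mean was removed. This follows from the fall that chose HCP5 and is a description without a test. RIBC2, a gene of ciliary microtubules, was nearest at 0.305, with signals of 30.3 and 55.0 with NC1153 against 405 and 354 with DMSO. GAS1, a membrane protein gene linked to growth arrest, followed at 0.472, with 18.0 and 46.5 with NC1153 against 245 and 206 with DMSO. In the authors' deposited table these genes differed less, RIBC2 by -1.03 and GAS1 by -0.93 on the log2 scale. RAB27B, a GTPase gene of secretory vesicles, stood at 0.505, with 135 and 111 with NC1153 against 1485 and 1024 with DMSO. In HCP5, RIBC2 and GAS1 NC1153 replicate 1 was the lower of the treated arrays, and in RAB27B NC1153 replicate 2 was. HPDL at 0.579 and DUSP6, the ERK phosphatase gene, at 0.634 completed the 5, with log2 differences of -2.87 for each, against -3.80 for HCP5.

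**Figure D5:**
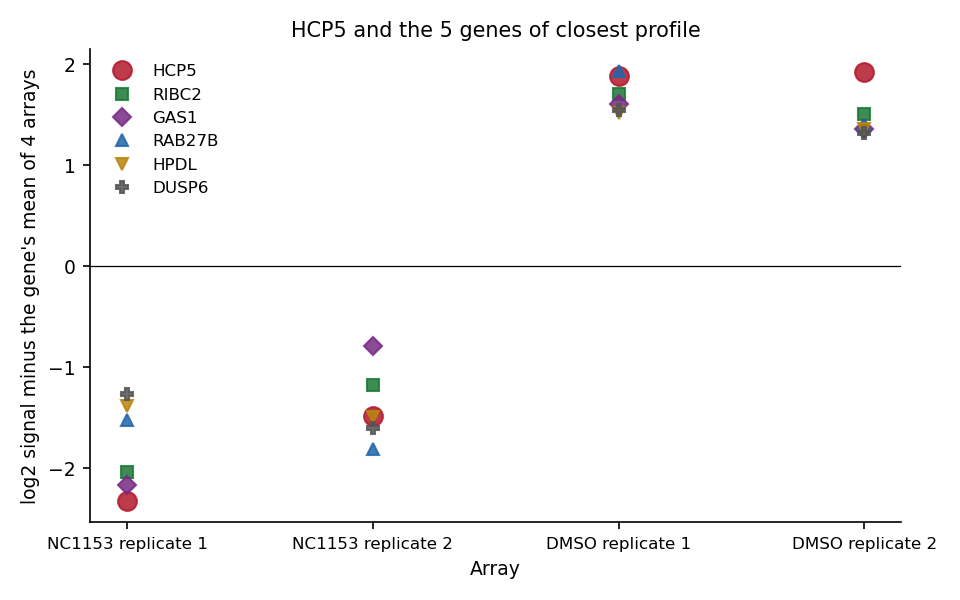
Log2 signal minus the gene's mean over the 4 arrays, for HCP5 and the 5 genes of closest profile, with 1 symbol per gene and array. All 6 genes lie below 0 on both NC1153 arrays and above 0 on both DMSO arrays, as their selection requires.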

How the data were processed

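Affymetrix HG-U133 Plus 2.0 arrays measured the RNA of 4 Kit225 samples. The deposited intensity values of 54675 probe sets are linear and globally scaled, and the scaling factors are given per the file headers; no detection calls entered, and which software made the signals is not given in the sources used here. A second table holds log2 values that the authors made by RMA and selected with limma and q-values, with their raw p-value, per the file headers. It served as a side check.

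The log2 of the signal, with no pseudocount, was fitted in R 4.3.3 by limma 3.58.1 (lmFit, then eBayes with a variance trend) over 54613 non-control probe sets. The fit has 2 residual and 7.27 prior degrees of freedom. Every adjusted p is two-sided, from limma with Benjamini-Hochberg adjustment over all of them, at a threshold of 0.05. The number of arrays limits the precision. The script was also run on simulated data with known changes.

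Gene names come from the platform annotation, and symbols were brought up to date by gene identifier (41037 of 41091 with 1 gene). Genes outside the 5 are represented by their brightest probe set. The rule named every member probe set, then up to 4 called genes per list, or 2 by lowest adjusted p where none passed, the nearest neighbours, HSF1, NLRC5 and the 5 closest profiles. TAP2, HLA-G, IRF1, ATM and CHEK2 were added outside this rule, for their unadjusted p under 0.05. ULBP3, RAET1E, HCST, TYROBP, KLRK1 and KLRC1 are named only to describe their lists. Members, lists and markers were chosen with earlier results of these data known. Marker lists of B, myeloid, NK and fibroblast or epithelial cells, with 4, 4, 5 and 6 measured genes, held 0 limma calls, with 0, 0, 1 and 1 at an unadjusted p under 0.05. Alternatives covered variance model, scaling, pseudocount, dim probe sets, replicate block and single arrays. Promoters were aligned with Biopython 1.88 (match 1, mismatch -1, gap opening -2, extension -0.5).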

Additional observations from a re-analysis of the deposited data

How the results depend on the processing

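Over the whole array limma called 971 probe sets lower and 1062 higher. These counts became 0 and 0 without a variance trend (5300 at an unadjusted p under 0.05), 24 and 23 with median centring, 1587 and 1722 without dim probe sets, and 1936 and 2061 with the replicate block. With spike-in centring 1019 were lower and 85 higher, and the median of all probe sets moved to -0.41. The dimmer HLA-E x probe set stood at -0.26 there, by the same shift of all probe sets. Leaving out single arrays gave 643 to 1429 lower and 487 to 1197 higher, the lowest without NC1153 replicate 1. With all 4 arrays kept, HCP5 was called in each setting but the one without a variance trend. It was picked for its fall in these same values, so this is no result. The other 8 member probe sets were called in none of the settings with all 4 arrays. The log2 difference of HCP5 was -4.23 with spike-in centring, -3.04 with 50 added and -2.90 in the authors' RMA values. Directions turned for MICB (-0.24 to 0.01 over left-out arrays), the second HLA-F x probe set (-0.77 to 0.07 over left-out arrays), and likewise ULBP1 (-0.22 to 1.54) and LINC01149 (-0.18 to 2.94), and the cause was not tested. ATR was not called with median centring (adjusted p = 0.38) or without a variance trend (0.50), nor ADAM17 (0.37 and 0.48). As a check of pairing, the deviations of arrays with the same number were correlated at 0.0546 (all probe sets) and 0.117 (brighter probe sets). With 2 pairs alone these values cannot decide whether the arrays are paired, and their names share a prefix. The replicate block raised the counts of calls to 1936 and 2061, and left MICA at an adjusted p of 0.11.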
